A study of Mus musculus with 5 samples.

Results

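The genes described here are the 3 Pim kinases (Pim1, Pim2 and Pim3) and 7 genes of the BCL2 family, of which Bcl2, Bcl2l1 and Mcl1 encode survival proteins and Bbc3, Bax, Bcl2l11 and Bad encode death proteins. They were chosen by name, and every probe whose accession in the scanner files belongs to 1 of these 10 genes was taken, which gave 19 of the 56605 probes on the array and 10 of the 22907 genes named there. Of the 19 probes, 18 lay well above background on at least 2 arrays and were tested among 41590 probes in all. The remaining Bcl2l11 probe was well above background on 1 array, NT-3N replicate 3, and has no test. Expression was measured in whole colon of wild-type C57BL/B6 mice with 1 single-colour array per sample. NT-3N, a modified human IL-11, is an agonist of the IL-11 receptor. The 3 NT-3N samples came from 8-week-old mice injected with it intravenously, with the colon taken 3 hr later. The 2 Control samples carry no treatment in their labels and are described by the study as untreated, so injection and agonist cannot be told apart. Their age was not analysed here. The study counts the injected group in mice and the untreated one in samples. The p-values set the group difference against the spread between these arrays, pooled in part over probes.

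IL-11 signals through its receptor chain and gp130 to the kinases of the JAK family and to STAT3. Pim1 and the survival genes Bcl2, Bcl2l1 and Mcl1 are textbook targets of STAT factors. PIM proteins are serine/threonine kinases that are active once made, so their activity follows their amount, and they phosphorylate BAD and so blunt its death signal. BCL2, BCL-XL (encoded by Bcl2l1) and MCL1 hold the pore-forming protein BAX in check at the mitochondrion, and the BH3-only proteins PUMA (Bbc3), BIM (Bcl2l11) and BAD oppose them. In the colon this balance sets the survival of crypt epithelium and of lymphocytes.

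On each array 70.6% to 73.1% of probes exceeded background clearly, and 0 spots were saturated. All values below are log2 processed signals after quantile normalization, and all differences are NT-3N minus Control on that log2 scale. The markers of colon tissue were present, with 10 of 10 epithelial and 8 of 8 smooth muscle markers tested. Across probes the controls correlated at 0.982 with each other, less than Control replicate 2 with the NT-3N arrays, at 0.985 to 0.988, while the NT-3N arrays correlated at 0.986 to 0.992 among themselves. As a scale for a large response, Socs3, a feedback inhibitor of cytokine signalling, had a log2 fold change of 2.71, Osmr, a receptor subunit for oncostatin M, one of 2.09 and Serpina3n, a secreted protease inhibitor, one of 3.33, with limma adjusted p of 0.0083, 0.0056 and 0.0029.

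None of the 10 members passed an adjusted p of 0.05 in limma, neither by its brightest probe nor by another. Of the 41590 probes 0.168% were called, 0.13% higher and 0.0385% lower. The local-pooled-error test, which the methods of the study name, also called 0 of the 10, with 1.03% of all probes called. At an unadjusted p under 0.05 limma had 2 members higher in NT-3N, Pim1 and Pim3, against 4.89% of all probes, and 2 lower, Bcl2l1 and Bad, against 4.64%, or 9.54% of all probes in either direction. The groups did not overlap for 3 members on the higher side (Pim1, Pim3 and Bax) and 2 on the lower side (Bcl2l1 and Bad), where 13.5% and 14.7% of all probes, 28.2% together, showed this. The median log2 fold change of the 10 members was -0.03, beside -0.02 over all probes.

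**Figure D1:**
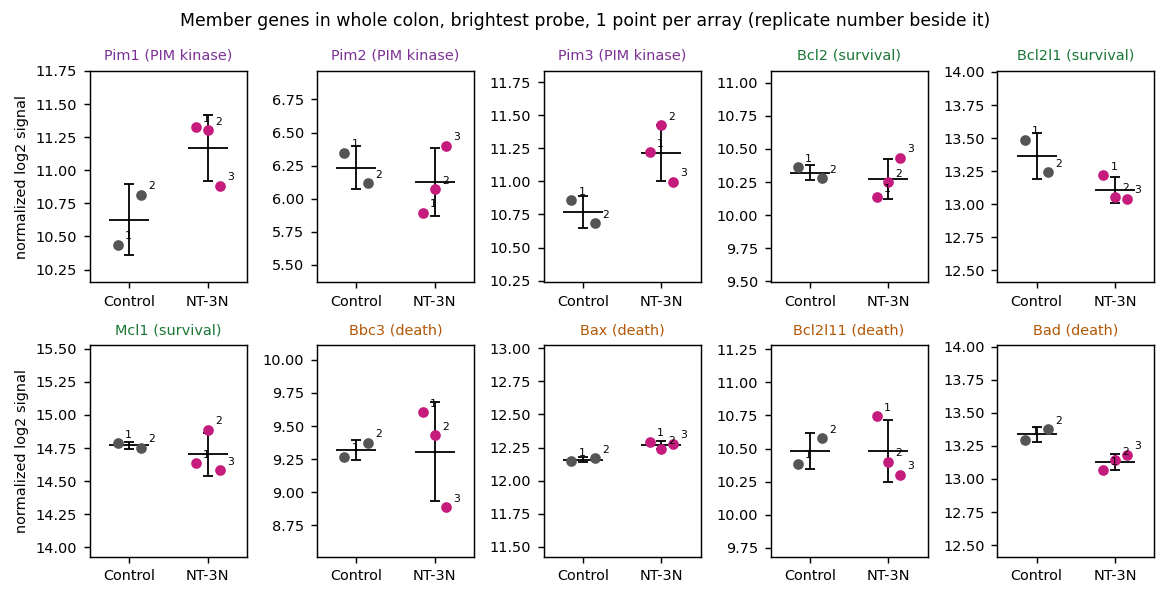
Normalized log2 signal (y axis, the same span in every panel) of the brightest probe of each member gene in the 2 Control and 3 NT-3N arrays, with 1 point per array, its replicate number beside it, and the mean and SD as bar and whiskers. The NT-3N points of Pim1 and Pim3 lie above both control points, those of Bcl2l1 and Bad lie below them, and the points of Pim2, Bcl2, Mcl1, Bbc3 and Bcl2l11 overlap.

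Among the kinases, Pim1 and Pim3 had the largest differences of the 10 members. The Pim1 probe read 10.44 and 10.82 in Control replicates 1 and 2 and 11.32, 11.30 and 10.88 in NT-3N replicates 1 to 3. All 3 NT-3N arrays lay above both controls, but NT-3N replicate 3 exceeded Control replicate 2 by 0.068, while the controls differed from each other by 0.38. The means were 10.63 ± 0.27 (SD, n = 2) and 11.17 ± 0.25 (SD, n = 3). The difference was 0.54 ± 0.18 (SE) on the log2 scale, or 1.46-fold with a 95% interval from 1.08-fold to 1.97-fold. By limma its unadjusted p was 0.021 and its adjusted p 0.43. Of all probes, 4.28% had a log2 fold change as high.

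Pim3 encodes the paralog that shares substrates with Pim1. Its probe read 10.86 and 10.68 in the controls and 11.22, 11.42 and 11.00 in NT-3N replicates 1 to 3. The groups were 0.14 apart at their nearest arrays, and NT-3N replicate 3 was again the lowest of its group. The difference was 0.45 ± 0.14 (SE) in log2, or 1.36-fold with a 95% interval from 1.07-fold to 1.73-fold (limma, unadjusted p 0.019 and adjusted p 0.42).

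Pim2, the paralog known for its expression in lymphoid cells, had another pattern. It read 6.35 and 6.12 in the controls and 5.90, 6.07 and 6.40 in NT-3N, so that the NT-3N arrays reached beyond the controls on both sides. Its log2 fold change was -0.11 with a 95% interval from -0.61 to 0.39 and a limma adjusted p of 0.89. Whether Pim2 differs from its paralogs in its response was not tested.

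The upstream sequences of the kinase genes with the largest differences are shown beside that of Socs3, the 1 gene of large response among Socs3, Osmr and Serpina3n whose window held the STAT motif searched for. They are the 250 bases before each annotated start in RefSeq, build GRCm38.p6, written 5′ to 3′ on the strand of the gene. All 10 members had at least 1 promoter window in that table, 17 windows in all, each running from 250 bases before to 50 after a start. Capitals mark a match to the palindromic STAT motif TTCNNNGAA or to the palindromic E-box CACGTG, a site for MYC and related factors. The E-box and the other motifs beside STAT were chosen after results were seen.
Pim1 first start, chr17:29490535-29490784, plus strand: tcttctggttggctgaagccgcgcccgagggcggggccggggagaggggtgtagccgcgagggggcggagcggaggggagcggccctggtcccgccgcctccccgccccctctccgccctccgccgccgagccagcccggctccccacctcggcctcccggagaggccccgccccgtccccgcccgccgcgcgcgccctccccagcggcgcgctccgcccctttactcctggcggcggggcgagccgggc
Pim1 second start, chr17:29492835-29493084, plus strand: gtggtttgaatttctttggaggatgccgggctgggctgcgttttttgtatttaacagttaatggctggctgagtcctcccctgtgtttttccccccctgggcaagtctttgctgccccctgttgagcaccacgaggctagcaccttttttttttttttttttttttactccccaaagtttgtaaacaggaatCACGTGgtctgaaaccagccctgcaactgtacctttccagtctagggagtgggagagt
Pim3, chr15:88861944-88862193, plus strand: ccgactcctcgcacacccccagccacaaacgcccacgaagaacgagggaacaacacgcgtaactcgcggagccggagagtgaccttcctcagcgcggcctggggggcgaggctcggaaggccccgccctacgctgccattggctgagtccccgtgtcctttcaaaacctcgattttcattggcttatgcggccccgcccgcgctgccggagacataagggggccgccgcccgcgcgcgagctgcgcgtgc
Socs3, chr11:117969367-117969616, minus strand: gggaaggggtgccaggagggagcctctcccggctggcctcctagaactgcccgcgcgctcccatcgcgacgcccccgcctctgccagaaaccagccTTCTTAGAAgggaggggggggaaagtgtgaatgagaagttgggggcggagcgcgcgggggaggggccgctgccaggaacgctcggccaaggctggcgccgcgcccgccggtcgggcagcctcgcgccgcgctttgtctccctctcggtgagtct

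The STAT motif lay in the Socs3 window, as TTCTTAGAA from base -154, but not in the windows of Osmr and Serpina3n. It was in 0 of the 17 windows of the members, while 8.3% of all 32851 windows held it. This says only that these letters are not within these windows. The E-box was found from base -58 of the second Pim1 start, and 3 of the 17 windows held it, those of Pim1, Bbc3 and Bax, against 7.15% of all windows. The TATA box TATAAA and the CRE TGACGTCA, searched on both strands like the other motifs, were in 0 of the 17 windows, with 13.6% and 1.79% of all windows holding them. In the windows of the members and Socs3 no match to 1 motif could overlap another motif, since each of these windows matched at most 1 of the 4. The GC content of the first Pim1 window was 81.3% and that of the Pim3 window 69.0%, where the median of all windows was 52.7%.

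All 8 probes of the 3 survival genes had a negative log2 fold change, none of them called. Probes of the same gene are not independent, and 22113 of all 41590 probes tested had a negative value. Mcl1, whose short-lived protein many cells need to survive, read 14.79 and 14.75 in Control and 14.63, 14.89 and 14.58 in NT-3N. The NT-3N arrays lay on both sides of the controls. The log2 fold change was -0.07 ± 0.11 (SE), with a 95% interval from -0.32 to 0.19, the upper end of which is 1.14-fold (limma adjusted p = 0.86).

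Bcl2, the founding survival gene of the family, read 10.36 and 10.28 in Control and 10.14, 10.25 and 10.43 in NT-3N, again with overlap. Its log2 fold change was -0.05 with an interval from -0.33 to 0.24 and a limma adjusted p of 0.92. A second Bcl2 probe, matched to another RefSeq transcript of the gene, read 9.92 and 9.89 in Control and 9.68, 9.65 and 9.92 in NT-3N. It gave -0.15 (limma adjusted p = 0.72), with NT-3N replicate 3 at the level of the controls and the others below them.

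Bcl2l1, which encodes BCL-XL, was represented by 5 probes that share the gene and so are not independent of each other. The brightest read 13.49 and 13.24 in Control and 13.22, 13.06 and 13.04 in NT-3N. Every NT-3N array lay below both controls, by 0.026 at the nearest pair, while the controls themselves lay 0.24 apart. The difference was -0.26 ± 0.11 (SE) in log2, with a 95% interval from -0.51 to -0.006 (limma, unadjusted p 0.046 and adjusted p 0.51). The other 4 probes had log2 fold changes of -0.22, -0.18, -0.17 and -0.14, each with a limma adjusted p of 0.65 or more, and for 1 of the 4 the groups did not overlap.

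Among the death genes, Bad had the largest difference by the brightest probe. BAD is the BH3-only protein that PIM kinases phosphorylate. It read 13.30 and 13.38 in Control and 13.07, 13.14 and 13.18 in NT-3N, with 0.11 between the nearest arrays of the groups. All NT-3N arrays lay below both controls. The difference was -0.21 ± 0.078 (SE) in log2, 1.15-fold higher in Control (limma, unadjusted p 0.036 and adjusted p 0.49).

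Bax, whose product opens the outer mitochondrial membrane, read 12.15 and 12.17 in Control and 12.29, 12.24 and 12.28 in NT-3N. The groups did not overlap, and a second Bax probe separated them as well, by 0.0072. The log2 fold changes of the 2 probes were 0.11 and 0.12, with limma adjusted p of 0.69 and 0.74. The interval of the brightest reached from 0.95-fold to 1.22-fold.

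Bbc3 encodes PUMA, a target of p53. It read 9.27 and 9.38 in Control and 9.61, 9.43 and 8.89 in NT-3N. NT-3N replicate 3 was the lowest and NT-3N replicate 1 the highest of all 5 arrays, which gave Bbc3 the widest interval among the brightest probes, from -0.53 to 0.50 around a log2 fold change of -0.01 (limma adjusted p = 0.99).

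Bcl2l11 encodes BIM, a target of FOXO factors. Its brightest probe read 10.39 and 10.58 in Control and 10.74, 10.40 and 10.30 in NT-3N, so that the group means were both 10.48. The interval of the difference ran from -0.37 to 0.37. The other 2 tested Bcl2l11 probes had log2 fold changes of 0.24 and 0.29, with limma adjusted p of 0.70 and 0.75 and overlapping groups.

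**Figure D2:**
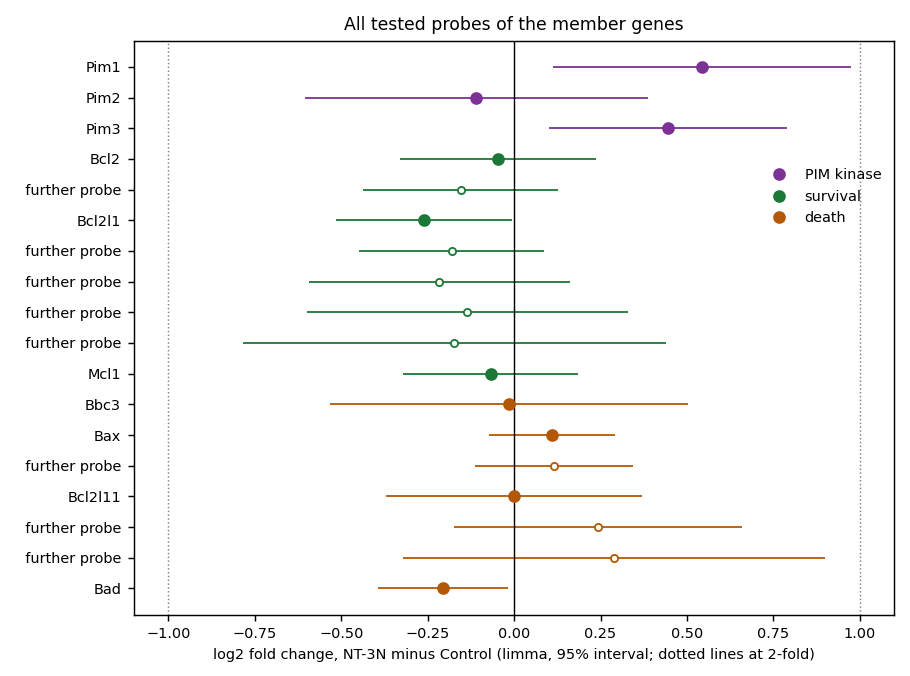
Log2 fold change of NT-3N against Control (x axis) with its 95% limma interval for all 18 tested probes of the members (y axis), the brightest probe of each gene filled and its further probes open, coloured by role. Every interval lies between the dotted lines at 2-fold, and the points of Pim1 and Pim3 are the furthest to the right.

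Set apart by role, the median log2 fold change was 0.45 for the 3 kinases, -0.07 for the 3 survival genes and -0.01 for the 4 death genes. Of the brightest probes 2 of 3 kinases, 0 of 3 survival genes and 1 of 4 death genes were higher in NT-3N. The 95% interval of all 18 tested member probes lay within 2-fold in both directions, which held for 80.7% of all probes tested. For 10 of the 18 it lay within 1.5-fold, beside 50.9% of all probes. The intervals reached 0.18 to 0.61 in log2 to either side of the estimate, depending on the probe. They are no limit of detection, and with 5 arrays small differences can be missed. A call needs more than an interval that excludes no change. The intervals are not adjusted for the number of probes tested. Those of Pim1, Pim3, Bcl2l1 and Bad excluded no change, yet none of these genes was called.

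The members sit in a wider pathway, of which 50 further genes were taken, with 48 on the array by symbol and 46 tested. Bcl2a1a and Bcl2a1b were not matched by symbol, and Bcl2l10 and Hrk did not pass the filter on dim probes. Over all probes limma called 0 of the 46, with 2 higher and 3 lower at an unadjusted p under 0.05, where 9.54% of all probes lay. The local-pooled-error test called 1 of the 46, beside 1.03% of all probes. The log2 fold changes were positive for 25 and negative for 21, with a median of 0.03, beside -0.02 over all probes.

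Of the PIM kinase substrates 4 were higher and 3 lower, with a median of 0.03. Myc, a growth regulator that PIM kinases stabilize, read 8.51 and 8.59 in Control and 9.13, 9.31 and 9.61 in NT-3N by its brightest probe. All NT-3N arrays lay above the controls, with a log2 fold change of 0.80 (limma, unadjusted p 0.0018 and adjusted p 0.19). A second Myc probe gave -0.03 with overlapping groups and a limma adjusted p of 0.97, so the 2 probes disagree. Their Control means were 8.55 for the brightest and 8.56 for the second. The brightest was picked by its mean over all arrays, so it ranked first through its NT-3N values. The choice was thus not independent of the difference, and the count and median of this list rest on it. Cdc25a, a phosphatase that drives the cell cycle, had a log2 fold change of -0.21 and a limma adjusted p of 0.50, and its second probe gave -0.28. Eif4ebp1, an inhibitor of translation named after its values were seen, had a log2 fold change of 0.23 and a limma adjusted p of 0.50.

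Among the further survival proteins, which gave 3 tested genes with a median of 0.13, Bcl2l2 had a log2 fold change of -0.10 and Bcl2a1d one of 0.16. Bcl2a1d belongs to a cluster of near-identical genes, so its probe may read more than 1 of them. It read 8.99 in Control replicate 2 and between 9.44 and 9.78 on the other arrays. The further BH3-only and effector genes had 2 higher and 4 lower and a median of -0.06, with -0.25 for Bok and -0.16 for Bik.

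The inhibitors of apoptosis, which block caspases or, for the Naip genes, sense bacterial proteins, were higher for 7 of 9 genes with a median of 0.12 and 0 calls in limma. Birc3, a ubiquitin ligase of the NF-kB pathway, read 8.39 and 8.34 in Control and 8.57, 8.86 and 8.56 in NT-3N, with a log2 fold change of 0.30 and a limma adjusted p of 0.55. Naip2 had 0.12. Naip6, named after its values were seen, was the gene called by the local-pooled-error test, but its controls read 12.17 and 10.75, further apart than the NT-3N arrays at 12.33, 12.31 and 11.46, and limma gave it an adjusted p of 0.72. Naip genes share long stretches of sequence, so their probes may read more than 1 of them.

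Of the apoptosome and caspase genes 4 were higher and 4 lower, with a median of 0.0048. Htra2, a mitochondrial protease, had a log2 fold change of -0.14 and a limma adjusted p of 0.65. Of the 13 genes that act on MCL1, BAD, BIM or PUMA, 6 were higher and 7 lower, with a median of -0.0040. The 14-3-3 genes Sfn and Ywhag, whose products bind phosphorylated BAD, both had -0.29, with limma adjusted p of 0.42 and 0.595.

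**Figure D3:**
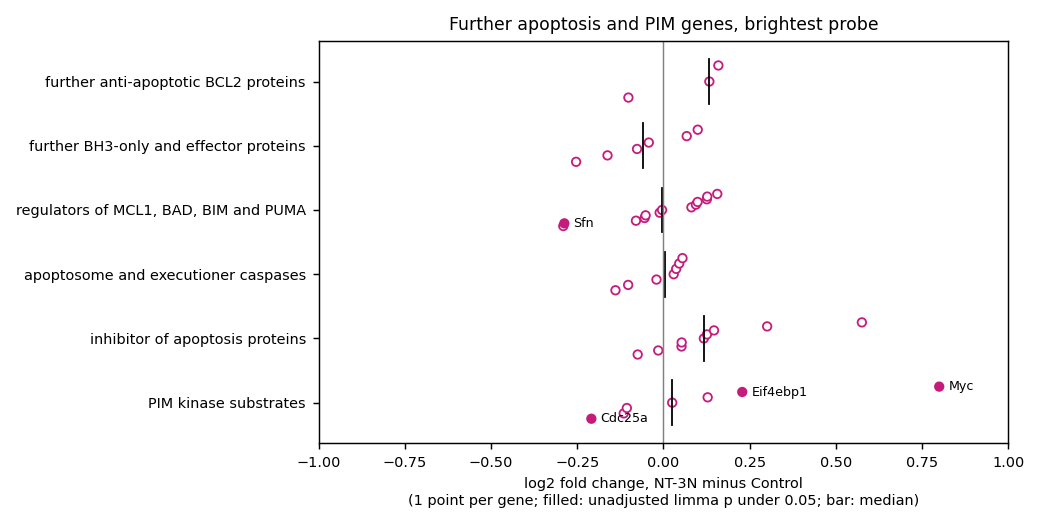
Log2 fold change of NT-3N against Control (x axis) for the brightest probe of 45 of the 46 further genes tested, in 6 lists (y axis), filled where the unadjusted limma p was under 0.05, with a bar at the median over all tested genes of each list. Myc and Eif4ebp1 are the filled points on the right and Sfn and Cdc25a those on the left, and none passed an adjusted p of 0.05. The Myc probe shown was picked as the brightest through its NT-3N values.

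The differences of Pim1, Pim3, Bcl2l1 and Bad were followed through 18 alternatives, 5 of which left out 1 array. All 4 kept their direction and none was called in any. Their groups did not overlap, so leaving out 1 array could not reverse them. Several other alternatives changed only the variance or the set of probes and kept the same log2 fold change. Mcl1 and Bax kept their direction as well, so this does not set the 4 apart. Without Control replicate 1 the log2 fold change of Pim1 was 0.36 and that of Bcl2l1 -0.14, the lowest sizes of both. Without Control replicate 2 they were 0.73 and -0.38. For Pim1 the unadjusted p stayed under 0.05 in 16 of the 18 alternatives. It was 0.14 in limma when Control replicate 1 was left out and 0.061 when NT-3N replicate 2 was. For Pim3 it also did so in 16, for Bad in 9 and for Bcl2l1 in 8. By the local-pooled-error test the unadjusted p was 0.0052 for Pim1, 0.060 for Pim3, 0.094 for Bcl2l1 and 0.29 for Bad. All alternatives reuse the same arrays, so these counts are not repeated independent results.

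**Figure D4:**
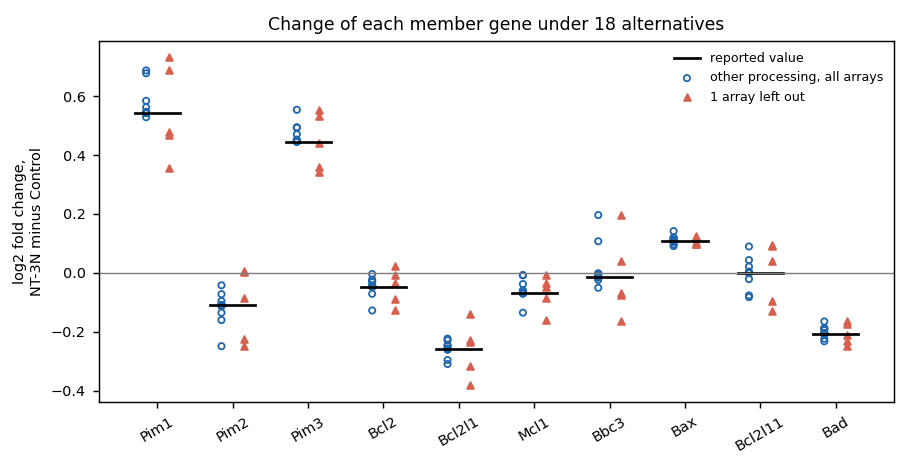
Log2 fold change of NT-3N against Control (y axis) of each member gene (x axis) as reported (bar), under 13 other ways of processing all arrays (open circles) and with 1 array left out (triangles). The points of Pim1 and Pim3 stay above 0 and those of Bcl2l1 and Bad below it, and those of Pim2, Bcl2, Bbc3 and Bcl2l11 fall on both sides.

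The levels of cell type markers differed between arrays, and in whole tissue fewer cells of a type and less RNA per cell cannot be told apart. Beside the values of Pim1 and Pim3 stand the neutrophil markers, of which 8 of 9 were on the array by symbol. Without any filter on dim probes 7 of the 8 had a higher mean in NT-3N, the dim Cxcr2 and Retnlg among them. Of all 41590 probes that passed the filter, 19477 had a positive log2 fold change. The summed normalized signal of the 8 markers was 110.5 and 143.7 in Control and between 241.6 and 630.1 in NT-3N. Most of the rise in this sum came from S100a8 and S100a9, so it does not describe the list as a whole. S100a9 read 1.56 and 1.58 in Control and 8.58, 6.23 and 6.65 in NT-3N. Cxcr2 and Ngp were well above background on 0 arrays and Retnlg on 1. S100a8 and S100a9 were well above background on 0 of 2 control arrays and 3 of 3 NT-3N arrays, so they passed the filter through NT-3N alone, and 3 of the 8 did not pass it. Camp, the neutrophil marker well above background on all 5 arrays, had a log2 fold change of 0.19 and a limma adjusted p of 0.73. Within NT-3N, replicate 2 had the lowest neutrophil sum and the highest Pim3 value, 11.42. Replicate 1 had the highest sum and the highest Pim1 value, 11.32. Beside the values of Bcl2l1 and Bad stand the smooth muscle markers, all 8 of which were lower in NT-3N, with a median log2 fold change of -0.29 and sums of 452441 and 467608 in Control and 333612 to 421380 in NT-3N. The order of single arrays was mixed. NT-3N replicate 1 had the lowest of these sums, with the highest Bcl2l1 value of its group, 13.22, and the lowest Bad value, 13.07. The 10 epithelial markers summed to 1148150 and 1156800 in Control and 1063390 to 1167730 in NT-3N, with a median of -0.03. The 8 B cell markers summed to 1744 in Control replicate 2 and to between 5025 and 6103 on the other 4 arrays, and Bcl2a1d, known from lymphoid and myeloid cells, was lowest on that same array. Ms4a1 of the same list was low in both controls instead, at 4.95 and 6.53 against 9.13 to 9.54 in NT-3N (limma adjusted p 0.056). The plasma cell markers overlapped between the groups, as Pim2 did. The part of these cells in the values of the members was not tested.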

How the data were processed

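Per the labels and the file headers, the authors read 5 single-colour arrays with Agilent Feature Extraction 11.0.1.1 and deposited, for each spot, a background-subtracted and detrended intensity not scaled between arrays. They also deposited a table of log2 values, quantile-normalized, for 37380 probes, which was used as an alternative only. Control spots and between 69 and 184 outlier spots per array were left out, the processed intensity was put on a log2 scale, replicate spots of a probe were averaged, and quantile normalization followed. Probes were kept where well above background on at least 2 arrays, with values on both control arrays and at least 2 NT-3N arrays. Accessions were matched to RefSeq symbols (GRCm38.p6), which named 32989 of 56605 probes. The header names another build, so no probe coordinates are given. Every probe was a feature in limma 3.58.1 (R 4.3.3; lmFit, eBayes with an intensity trend, two-sided, Benjamini-Hochberg over 41590 probes, threshold 0.05), and a gene took the value of its brightest probe. Brightness was the mean over all 5 arrays, so the choice of probe was not independent of the groups. The local-pooled-error test of the study's methods was an alternative. Both tests were tried on simulated data with independent noise per probe, its spread drawn from limma's own estimates. That simulation held no differences between whole arrays, so no conclusion about these data is drawn from it. With 10 ways to split 5 arrays, 0.1 is the smallest p of an exact permutation test. Precision is limited by how few arrays there are.

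The members and the gene lists were chosen with earlier results of these data known. Named were all members, Socs3, Serpina3n and Osmr for scale, and from each further list the genes called or else the 2 with the smallest unadjusted p, 1 of which is not reported here. Marker lists were summed per array as linear signal of the brightest probes. All arrays shared 1 slide and 1 scan, so no batch was fitted. The normexp alternative used median spot signals. Protein sequences were not analysed here.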

Additional observations from a re-analysis of the deposited data

How the results depend on the processing

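The 10 members gave 0 calls in limma and the local-pooled-error test under all 18 alternatives, with adjusted p of 0.21 or more, and the further genes gave 1 higher call, Naip6, by the local-pooled-error test alone. Over all probes the 54 higher and 16 lower calls were 5 and 1 with no filter on dim probes, 3 and 0 with no intensity trend, 156 and 68 with array quality weights and 243 and 187 by the local-pooled-error test. Lower calls were 6 with 1 probe per gene, 26 with robust variance and 9 after median scaling. Leaving out 1 array at a time gave 0 to 174 higher calls (174 when Control replicate 2 was left out, 1 for NT-3N replicate 2, 0 for NT-3N replicate 3) and 0 to 25 lower calls (25 for NT-3N replicate 1). The cause was not tested.

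Replicate numbers were not taken as pairs in the main fit. Deviations from the group means correlated at 0.12 and 0.035 for the 2 shared numbers. With 2 controls these correlations are not independent, so they cannot exclude a pairing. With the replicate block, in which NT-3N replicate 3 has no partner, limma called 0 higher and 0 lower probes, with 3176 at an unadjusted p under 0.05.

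Of 316 single-probe values 16 reversed sign. Of these 7 were for Bcl2l11, whose log2 fold change in the main fit was -1.5e-06, so its sign there carries no meaning. Bbc3 had a log2 fold change of 0.11 by the local-pooled-error test and 0.20 with the replicate block, and -0.16 to 0.20 with 1 array left out (0.20 for NT-3N replicate 3, 0.039 for Control replicate 2). Bcl2l11 had 0.021 and 0.043 after 75th percentile and median scaling, 0.0043 in the deposited values, 0.090 with the block and -0.13 to 0.096 with 1 array left out (0.096, 0.041 and 0.090 for Control replicate 2, NT-3N replicate 2 and NT-3N replicate 3). Bcl2 ranged from -0.13 to 0.022 (NT-3N replicate 1 left out) and Pim2 from -0.25 to 0.0054 (Control replicate 1 left out), with 0.0040 for NT-3N replicate 1. A further Bcl2l1 probe had 0.022 with the block and -0.24 to 0.022 with 1 array left out. The 3 scalings put the median of all probes at -0.017, -0.026 and -0.0035.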
